A study of Mus musculus with 96 samples.

Results

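The maternal and the paternal allele were compared in liver messenger RNA of all 48 mice of the series. Compared were 9362 autosomal genes whose counts averaged 20 or more per mouse, of 38924 genes in the tables. The count of a gene was the sum of its NOD and PWK expected counts, which are estimated read counts per allele. The maternal count was the NOD count in NODxPWK mice and the PWK count in PWKxNOD mice, since the strain written first was taken as the dam. A gene was called for a parent where the log2 ratio of PWK over NOD counts differed between the 24 PWKxNOD and the 24 NODxPWK mice and the maternal share lay on the same side of 50% in both crosses.

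All mice were male F1 hybrids between NOD/ShiLtJ, a laboratory strain that develops autoimmune diabetes, and PWK/PhJ, which descends from wild mice. Each cross held 4 groups of 6 mice, which were younger or older and were fed cholecalciferol, or vitamin D3, at 0.009 g per kg of diet (normal) or 0.050 g per kg (high). The age labels read 8 for younger and 24 or 25 for older mice without a unit, and the protocol names 15 and 24 weeks, so no age in weeks is given here. The label 25 belonged to 7 older mice on the normal diet, 5 of them NODxPWK and 2 PWKxNOD. Summed counts ranged from 2.03 to 7.48 M per mouse, where M is 1e6 counts, with a median of 5.27 M. Hepatocyte markers summed to between 66911 and 128900 CPM (a count scaled to a library of 1e6 counts) per mouse, and pancreas markers exceeded 80 CPM in 8 mice.

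Genomic imprinting is the expression of a gene from the allele of one parent. Marks of DNA methylation set in the egg or the sperm are kept at imprinting control regions after fertilization, and neighbouring genes of a cluster can respond to the same region. Reciprocal crosses separate this effect from that of the strain, because an allele of a given strain comes from the mother in one cross and from the father in the other.

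Genes inherited from the mother alone were used to check which strain was the dam. Males carry an X chromosome from the dam, and mitochondrial DNA passes through the mother. Of X-linked counts, 94.6 to 95.7% per mouse went to the NOD allele in NODxPWK mice and 93.4 to 95.7% to the PWK allele in PWKxNOD mice. The labelled dam thus held most X-linked counts in 48 of 48 mice. Of 265 X-linked genes that passed the same minimum, 208 (78.5%) had over 90% of their counts on the dam's strain in both crosses. The median X-linked gene whose alleles were told apart had 98.9% in both crosses. The other 57 X-linked genes had at most 90% in at least 1 cross, and 8 of the 265 stood at 50% in every mouse of each cross. Mitochondrial counts went to the dam's strain at 90.3 to 91.4% in NODxPWK and 91.0 to 92.0% in PWKxNOD mice. Among 15 mitochondrial genes, 12 had 99.4 to 99.9%, and mt-Co2, mt-Atp8 and mt-Atp6 stood at 50% in both crosses.

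**Figure D1:**
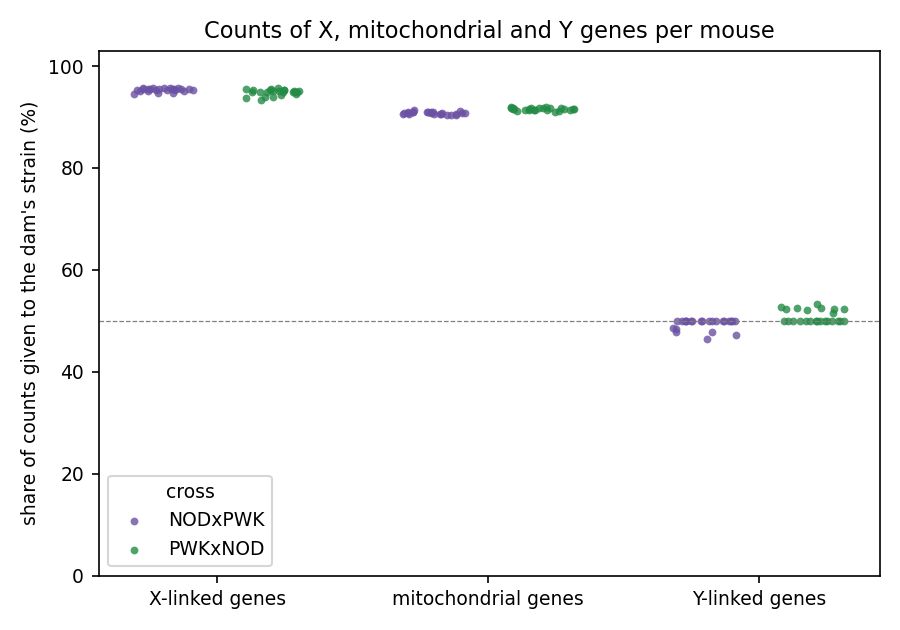
Share of counts given to the strain of the dam (y axis, %) for X-linked, mitochondrial and Y-linked genes, with 1 point per mouse and 24 mice per cross. X-linked and mitochondrial points lie above 90% in both crosses, and Y-linked points lie near 50%. Of 6 Y-linked genes with mean counts of 20 or more, 5 stood at 50% in every mouse. The other had 37.8% on the dam's strain in NODxPWK and 69.4% in PWKxNOD mice, which is more on PWK in both. Y-linked counts thus give no check of the sire.

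A share of 50% within 0.01 percentage points in every mouse was taken to mark a gene whose alleles the counts do not separate. This held for 468 of the 9362 genes tested, and the other 8894 are called informative here. Some of these may still have few reads that separate the alleles. Among the uninformative genes was Slc38a4, an amino acid transporter gene of liver that is known to be imprinted, with 50% in every mouse at a mean count of 5784.

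The maternal allele was higher for 6 of 9362 genes (0.0641%) and the paternal allele for 5 (0.0534%), in edgeR's quasi-likelihood test at an adjusted p of at most 0.05. The maternal genes were Igf2r, H13, Gnas, Slc22a18, Ctsz and Depp1. The paternal genes were Peg3, Zrsr1, Impact, Gm38393 and Upp2. Cross differences of 14 more genes (0.15%) passed the test with the maternal share on opposite sides of 50%, so that 25 genes (0.267%) passed it in all. Over the informative genes, the median maternal share was 50.1% in NODxPWK and 49.9% in PWKxNOD mice, and the median log2 ratio of maternal over paternal counts was 0.00.

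**Figure D2:**
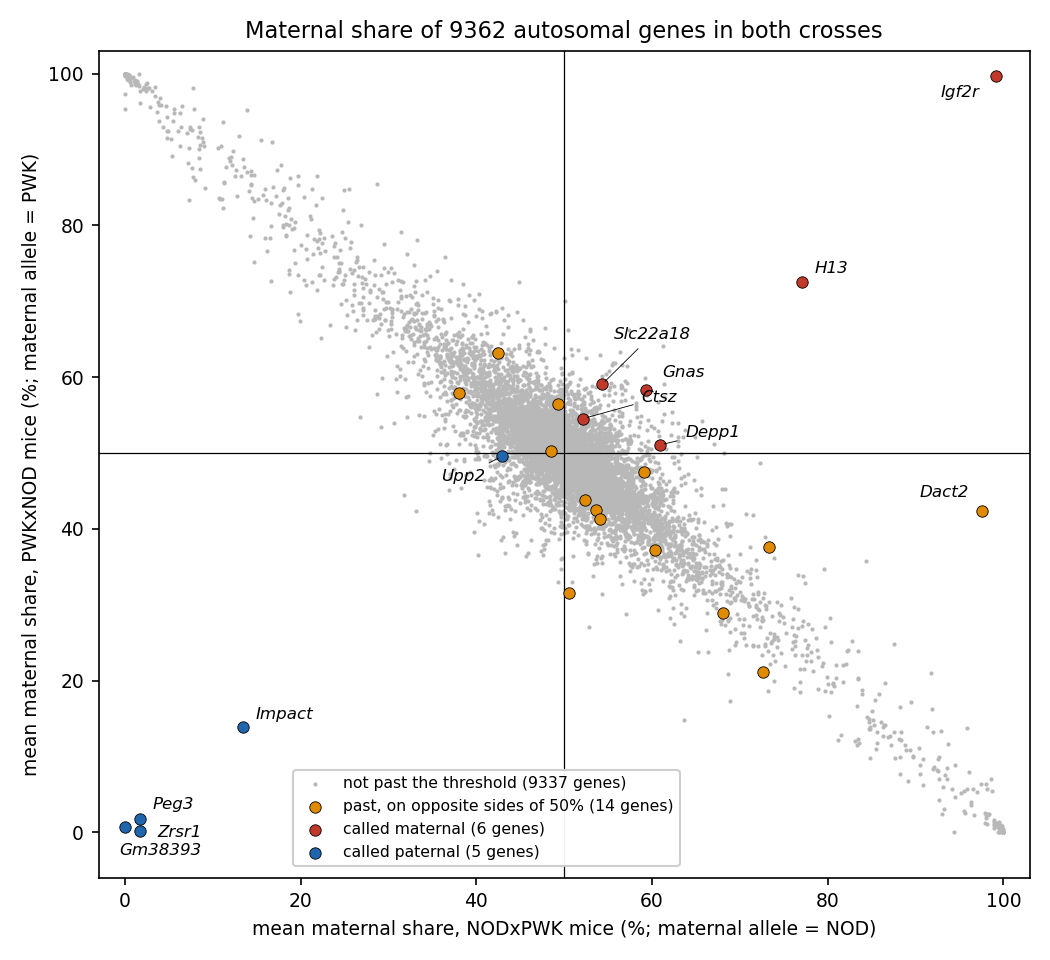
Mean maternal share over 24 NODxPWK mice (x axis, %) and 24 PWKxNOD mice (y axis, %) of 9362 autosomal genes, with 1 point per gene. Genes that differ by strain lie along the falling diagonal, whereas Igf2r and H13 lie at the upper right and Peg3, Zrsr1, Gm38393 and Impact at the lower left, away from it.

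Near-complete expression from 1 parent was found for Igf2r, Peg3, Zrsr1 and Gm38393. The promoters of Igf2r and H13, read from the maternal allele, and of Peg3 and Zrsr1, read from the paternal allele, are shown so that their content of CG, the dinucleotide that carries DNA methylation, can be compared. They are RefSeq promoters of the reference strain in GRCm38.p6, from 250 bases before to 50 bases after the start of the gene, with CG in capitals. The same letters read on both strands, and 9 of the 11 called genes had an entry.
Igf2r, chr17:12769657-12769956, minus strand: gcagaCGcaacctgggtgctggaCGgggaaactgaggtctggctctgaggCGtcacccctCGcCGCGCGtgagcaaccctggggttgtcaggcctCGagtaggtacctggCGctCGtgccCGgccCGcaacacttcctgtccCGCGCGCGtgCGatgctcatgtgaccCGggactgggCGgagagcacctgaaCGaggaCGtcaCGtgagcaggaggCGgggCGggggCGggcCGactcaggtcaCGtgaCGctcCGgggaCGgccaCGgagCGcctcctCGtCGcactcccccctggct
H13, chr2:152669211-152669510, plus strand: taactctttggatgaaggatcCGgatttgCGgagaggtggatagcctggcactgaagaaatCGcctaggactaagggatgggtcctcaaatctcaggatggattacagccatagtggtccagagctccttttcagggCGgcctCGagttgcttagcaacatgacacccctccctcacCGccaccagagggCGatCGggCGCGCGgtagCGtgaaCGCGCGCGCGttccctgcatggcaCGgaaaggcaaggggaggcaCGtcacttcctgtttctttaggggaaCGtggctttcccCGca
Peg3, chr7:6730370-6730669, minus strand: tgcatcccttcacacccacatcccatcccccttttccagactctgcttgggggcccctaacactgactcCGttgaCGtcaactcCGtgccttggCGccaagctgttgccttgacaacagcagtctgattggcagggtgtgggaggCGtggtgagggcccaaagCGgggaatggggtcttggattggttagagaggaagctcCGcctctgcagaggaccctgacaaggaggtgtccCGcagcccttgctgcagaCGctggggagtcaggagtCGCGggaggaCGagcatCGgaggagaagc
Zrsr1, chr11:22971755-22972054, plus strand: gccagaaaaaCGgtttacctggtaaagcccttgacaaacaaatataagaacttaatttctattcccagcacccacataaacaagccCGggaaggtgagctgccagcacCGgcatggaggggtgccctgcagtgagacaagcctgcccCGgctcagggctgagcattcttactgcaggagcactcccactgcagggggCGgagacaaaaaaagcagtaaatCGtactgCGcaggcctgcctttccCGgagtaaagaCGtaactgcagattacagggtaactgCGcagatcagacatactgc
The Igf2r promoter held 34 CG, more than 92.3% of 32851 promoters of 300 bases. That of H13 held 21 CG (more than 75.2% of promoters), and those of Peg3 and Zrsr1 held 13 (62.1%) and 10 (56.5%). The median promoter held 7, and 94.6% held at least 1. Of the called genes not shown, the 4 promoters of Gnas held 16 to 40 CG and that of Ctsz held 12. Those of Depp1 and Slc22a18 held 4 and 2, and the 2 of Upp2 held 37 and 2. No methylation was measured in these mice.

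Igf2r, which encodes the receptor that takes up and degrades insulin-like growth factor 2, had the strongest maternal expression. Its maternal share ranged from 95.4 to 100% (median 100%) in NODxPWK mice and from 97.2 to 100% (median 100%) in PWKxNOD mice. All 48 mice lay on the maternal side, and the NOD shares of the crosses did not overlap. Under 0.5 counts of the paternal allele were found in 14 NODxPWK and 18 PWKxNOD mice, where 3 counts of the median total would be a share of 0.651 and 0.605%. The maternal over paternal log2 ratio was 7.86 ± 0.23 (SE, adjusted p = 1.93e-27). The gene (ENSMUSG00000023830) lies on chromosome 17 at 12682406 to 12769664 of GRCm38, minus strand, and overlaps the antisense RNA Airn. Libraries were unstranded, so reads of overlapping genes cannot be told apart by strand.

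H13, which encodes a signal peptide peptidase, had a partial maternal excess. Its long transcripts are known to come from the maternal allele, and shorter ones from the paternal allele that carries the active Mcts2 in an intron. The maternal share ranged from 62.2 to 87.8% (median 76.5%) in NODxPWK and from 57.5 to 91.7% (median 73.8%) in PWKxNOD mice. No mouse was below 50%, and the NOD shares of the crosses did not overlap. The log2 ratio was 1.60 ± 0.09 (adjusted p = 1.26e-17). Maternal and paternal alleles averaged 95.4 ± 12.1 and 28.6 ± 9.25 CPM (SD, n = 24) in NODxPWK and 79.4 ± 14.9 and 30.1 ± 9.89 CPM in PWKxNOD mice. H13 lies on chromosome 2 at 152669461 to 152708670. Mcts2 itself, at a mean count of 12.5, was at 50% in every mouse and thus uninformative.

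Gnas and Slc22a18 had smaller maternal excesses, with mice on both sides of 50%. Gnas encodes the stimulatory G protein alpha subunit, from a locus whose alternative promoters give maternal, paternal and biallelic transcripts. Its gene-level maternal share ranged from 48.6 to 73.5% (median 59.0%) in NODxPWK and from 47.7 to 71.9% (median 57.4%) in PWKxNOD mice. It exceeded 50% in 46 of 48 mice, with a log2 ratio of 0.51 ± 0.05 (adjusted p = 1.21e-10). Slc22a18, an organic cation transporter-like gene of the Kcnq1 imprinted cluster, had 42.2 to 62.0% (median 55.1%) in NODxPWK and 43.7 to 71.0% (median 60.1%) in PWKxNOD mice. The maternal share was above 50% in 42 of 48 mice, and the log2 ratio was 0.39 ± 0.05 (adjusted p = 4.22e-06). The NOD shares of the crosses overlapped for both genes. Of Gnas, 17.5% of 68-base windows occur in overlapping transcripts of Gm20721 and Nespas.

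Ctsz, which encodes the lysosomal protease cathepsin Z, lies 80.7 kb from Gnas on chromosome 2 (174427493 to 174439039). Its maternal share ranged from 47.3 to 57.5% (median 52.2%) in NODxPWK and from 41.8 to 61.7% (median 54.7%) in PWKxNOD mice. It was above 50% in 39 of 48 mice, with a log2 ratio of 0.20 ± 0.03 (adjusted p = 0.000276). Of 7 tested genes within 300 kb of Gnas, Ctsz was the 1 gene past the threshold. Nelfcd, whose end overlaps that of Ctsz, had maternal shares of 64.2 and 41.8% (log2 ratio 0.19 ± 0.16, adjusted p = 1).

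Depp1, a gene induced by FOXO factors in fasting, was the least stable maternal call. Its maternal share ranged from 44.2 to 80.2% (median 63.0%) in NODxPWK and from 37 to 82.1% (median 46.9%) in PWKxNOD mice. The mean of the PWKxNOD mice, 51.1%, was above 50% whereas their median and the share of their summed counts (47.3%) were below it. Group means in PWKxNOD mice were 61.3% ± 14.8 (SD, n = 6) in older mice on the high diet and 45.7 to 48.8% in the other 3 groups. Its log2 ratio was 0.35 ± 0.07 (adjusted p = 0.00377). It was 0.34 without the mice labelled 25 (adjusted p = 0.0917) and 0.34 without lane set 3 (adjusted p = 0.0606). Without lane set 5, without the mice of the shallowest barcode, or by the share of summed counts, the maternal shares of the crosses lay on opposite sides of 50%. Depp1 lies on chromosome 6 within Rassf4, on the opposite strand.

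Peg3, a zinc finger gene whose paternal expression is known from many tissues, was read from the paternal allele. Its maternal share ranged from 0 to 7.35% (median 0.506%) in NODxPWK and from 0 to 11% (median 0%) in PWKxNOD mice. All 48 mice were on the paternal side. Under 0.5 maternal counts were found in 12 NODxPWK and 17 PWKxNOD mice, where 3 counts of the median total would be 5.08 and 4.26%. The log2 ratio was -6.20 ± 0.29 (adjusted p = 5.50e-20). Peg3 lies on chromosome 7 at 6703892 to 6730431.

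Zrsr1, a splicing factor gene that arose by retrotransposition into an intron of Commd1, showed the same pattern. The maternal share ranged from 0 to 17.7% (mean 1.74% ± 4.14, SD, n = 24) in NODxPWK and from 0 to 3.84% (mean 0.160% ± 0.784) in PWKxNOD mice. In 19 and 23 mice, under 0.5 counts were maternal, and 3 counts of the median total would be 3.35 and 4.11%. The fitted log2 ratio was -7.70 ± 0.41 (adjusted p = 5.04e-11). Its host gene Commd1 had 50.4 and 50.2% (log2 ratio 0.02 ± 0.03, adjusted p = 1). The median share of Commd1 was 50% in both crosses, with a range of 47.4 to 53.3% in NODxPWK mice. Its counts may thus hardly separate the alleles, and equal expression of Commd1 was not shown. Of Zrsr1 windows, 6.35% occur in Commd1. Zrsr1 lies on chromosome 11 at 22972005 to 22976496.

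Impact, whose product restrains the translation-control kinase GCN2, kept a minor maternal share. It ranged from 0 to 42.8% (median 10.5%) in NODxPWK and from 0 to 42.9% (median 9.11%) in PWKxNOD mice. No mouse reached 50%, and the summed counts gave 12.8 and 14%. Median totals were 59.5 and 49 counts per mouse, so single shares are imprecise. The log2 ratio was -2.99 ± 0.28 (adjusted p = 4.45e-10). Impact lies on chromosome 18 at 12955852 to 12992950.

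Gm38393 (ENSMUSG00000000948), a predicted gene on chromosome 7 at 59974149 to 60005064, overlaps Snrpn and Snurf on the same strand in the annotation. Snrpn and Snurf are known as paternally expressed, and under their own identifiers they were not analysed here. The maternal share of Gm38393 was at most 0.0071% in the 24 NODxPWK mice. It was between 0 and 14.5% in PWKxNOD mice, of which 23 had under 0.5 maternal counts. The adjusted p was 0.00127. It was 0.667 with the replicate number as a block and 0.737 without lane set 5, and DESeq2 gave an unadjusted p of 9.37e-122. Of its 68-base windows, 7.73% occur in other genes.

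Upp2, a uridine phosphorylase gene of liver, differed slightly. Its maternal share ranged from 28 to 52.3% (median 43.2%) in NODxPWK and from 43.5 to 60.1% (median 50.1%) in PWKxNOD mice. Above 50% were 1 NODxPWK and 13 PWKxNOD mice, so that the mean of 49.6% in PWKxNOD mice was close to the limit of the call. The log2 ratio between the parental alleles was -0.22 ± 0.04 (adjusted p = 0.000778), and its adjusted p was at most 0.0289 under 18 other settings. Without lane set 4, in which each group has 1 mouse, the shares of Upp2 fell on opposite sides of 50%.

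**Figure D3:**
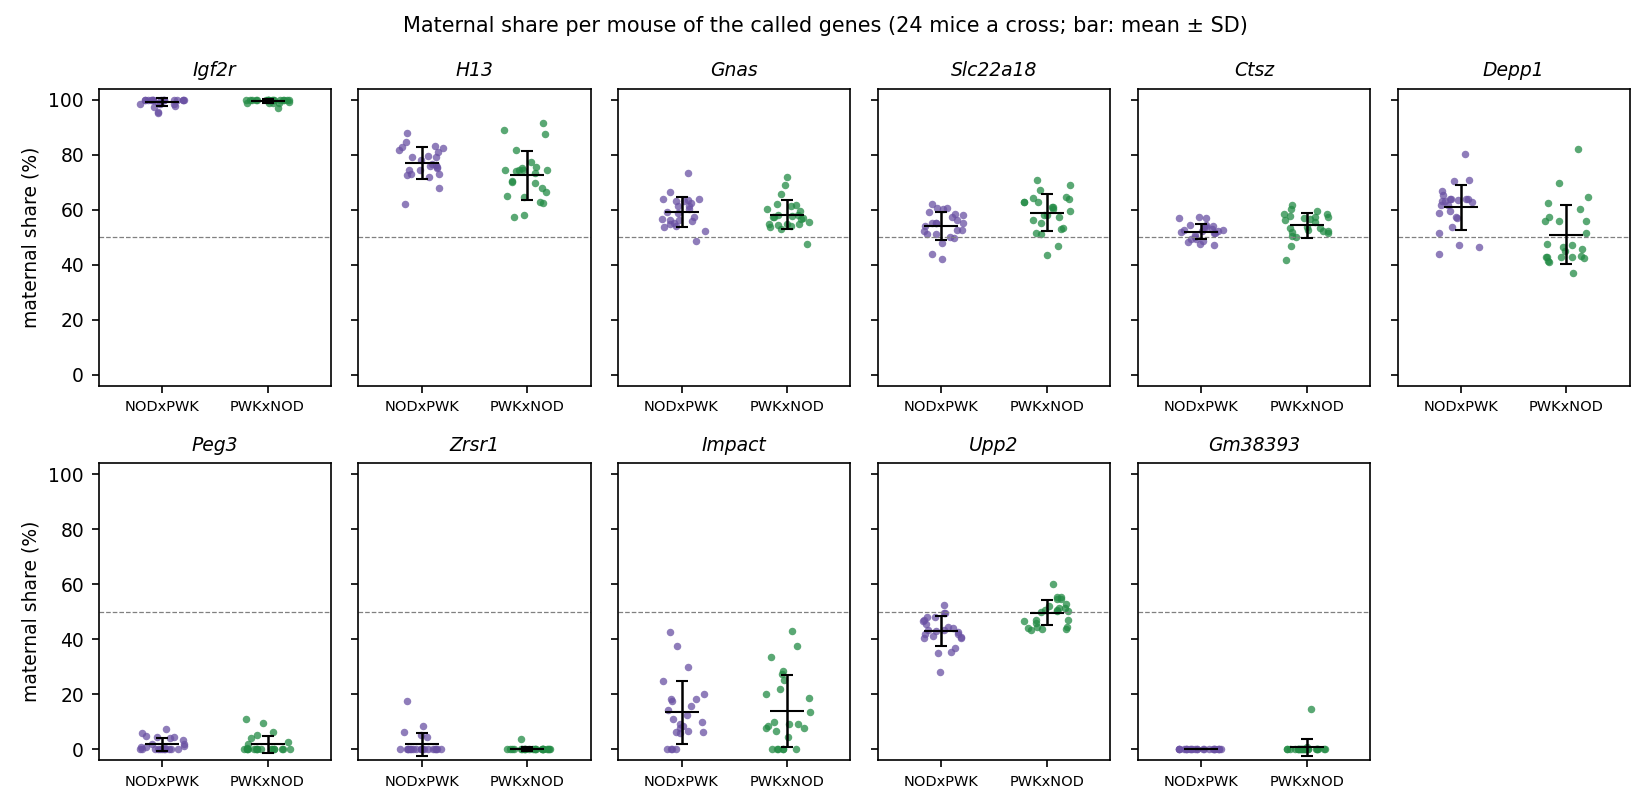
Maternal share (y axis, %) of the 11 called genes in each mouse of the 2 crosses, with bars for the mean ± SD of 24 mice. For Igf2r, Peg3, Zrsr1, Gm38393, Impact and H13 every mouse is on 1 side of the dashed 50% line, whereas Gnas, Slc22a18, Ctsz, Depp1 and Upp2 have mice on both sides.

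Near Igf2r, Mas1 and Slc22a3 were below the minimum of 20. Mas1 (chromosome 17, 12841079 to 12868143), a receptor gene of the angiotensin system, had a mean count of 11.6 and entered the fit with a minimum of 5. There its maternal share ranged from 50 to 100% (median 100%) in both crosses, with means of 93.8 and 90.7% and a log2 ratio of 4.37 ± 0.39 (adjusted p = 6.16e-10). Mas1 overlaps Airn. Slc22a3 (chromosome 17, 12418960 to 12507704), an organic cation transporter gene known for imprinting in placenta, had mean maternal shares of 76.3 and 77.8%, with 19 and 22 of 24 mice above 50%. Its log2 ratio was 2.16 ± 0.41 (adjusted p = 0.0033).

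Known imprinted genes were taken as lists chosen with earlier results of these data known. Among all 9362 genes tested, 0.0641% were called maternal and 0.0534% paternal. Of 11 genes listed as maternally expressed in many tissues, 3 were tested and 3 were called maternal (Igf2r, H13 and Slc22a18). Of 26 genes listed as paternally expressed, 22 were matched and 5 were tested. Of these 5, 3 were called paternal (Peg3, Zrsr1 and Impact). Slc38a4 was uninformative, and Inpp5f, an inositol phosphatase gene with a paternal variant in brain, had 53.7 and 50.7% (log2 ratio 0.12 ± 0.13, adjusted p = 1). The median log2 ratio was 1.60 over the 3 tested maternal genes and -2.99 over the 5 paternal ones, beside 0.00 over all informative genes.

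Of 38 genes whose imprinting is known mainly from placenta, brain or other single tissues, 22 were tested and 1, Gnas, was called. Of all 9362 genes tested, 0.0641% were called maternal. The log2 ratios of the other 21, among them Dcn, Ube3a, Cd81 and Ddc, ran from -0.29 to 0.34, with a smallest adjusted p of 0.425. Of 14 genes for the upkeep of imprints, such as Dnmt1 and Trim28, 10 were tested, with log2 ratios from -0.22 to 0.14 and a smallest adjusted p of 0.328 in edgeR.

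With the minimum count lowered to 5, 6 more genes of 11789 were called, of which 5 were in the lists. H19 (76.5 and 71.3%, adjusted p = 0.0377, or 0.0712 with no minimum), Slc22a3 and Mas1 were maternal. In PWKxNOD mice, H19 exceeded 50% in 10 and was below it in 8 of 20 mice with counts. Its median total there was 2 counts per mouse, and the highest was 95. Sgce, which encodes epsilon-sarcoglycan, was paternal with mean maternal shares of 3.44 and 24.5% (log2 ratio -4.09 ± 0.49, adjusted p = 4.05e-06). Plagl1, a zinc finger gene, had 8.47 and 37.4% (adjusted p = 0.00157), and the hydrolase gene Mest had 25.7 and 38.5% (adjusted p = 0.00548). In PWKxNOD mice, Plagl1 exceeded 50% in 10 and was below it in 8 of 21 mice with counts. The median total of Plagl1 there was 2 counts per mouse. Mest exceeded 50% in 3 and was below it in 9 of 24 PWKxNOD mice, with the others at 50%. Of Mest windows, 20.5% occur in Copg2. Grb10, Meg3 and Rian, listed as maternal, were not called. Their summed counts were 83.1, 72.9 and 71.9% maternal in NODxPWK and 59.1, 59.6 and 55.6% in PWKxNOD mice. Of 24 PWKxNOD mice, 10 were above and 12 below 50% for Meg3, and 11 above and 10 below for Rian. Nnat, listed as paternal, was on opposite sides by summed counts, with 64.5 and 36.1%.

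**Figure D4:**
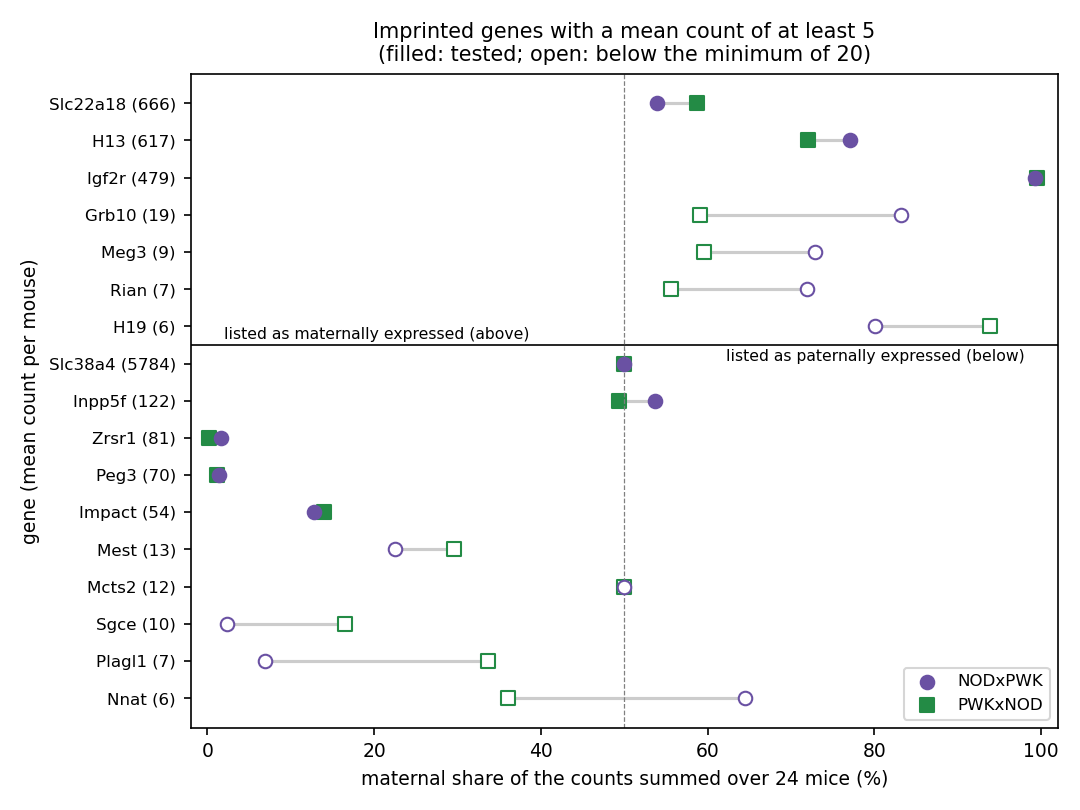
Maternal share of the counts summed over the 24 mice of each cross (x axis, %) for imprinted genes whose counts averaged 5 or more (y axis, mean count in brackets). All 7 genes listed as maternally expressed lie right of 50% in both crosses. Of single PWKxNOD mice, 10 were above and 12 below 50% for Meg3, and 11 above and 10 below for Rian. For H19 in PWKxNOD mice, the highest total of a mouse was 95 counts, beside 207 maternal and 13.6 paternal counts summed over all mice. Of the 10 listed as paternally expressed, 6 lie left of it in both, while Slc38a4 and Mcts2 stand at 50%.

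Among the genes with shares on opposite sides of 50%, the largest log2 ratio was that of Dact2. Dact2, which encodes an antagonist of Wnt and Nodal signalling, had a maternal share of 80.1 to 100% (median 100%) in NODxPWK mice, where the NOD allele is maternal. In PWKxNOD mice the share ranged from 0 to 100% (median 43.6%), and 1 mouse had under 0.5 maternal and 1 under 0.5 paternal counts. Its maternal over paternal log2 ratio was 2.65 ± 0.33 (adjusted p = 2.00e-06) at a mean count of 29.6.

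For Gpam, which encodes a mitochondrial acyltransferase of lipid synthesis, the mean maternal share was 38% in NODxPWK and 57.8% in PWKxNOD mice, with the PWK allele higher in both crosses. The log2 ratio of Gpam was -0.12 ± 0.02 (adjusted p = 0.00236). The nuclear RNA Malat1 (-0.08 ± 0.01, adjusted p = 0.00288) and the choline dehydrogenase gene Chdh (-0.11 ± 0.02, adjusted p = 0.0169) had shifts of that size as well. Without the mice labelled 25, the adjusted p was 0.0938 for Gpam, 0.106 for Malat1 and 0.234 for Chdh. Without lane set 6 it was 0.0612, 0.0561 and 0.136, and that of Chdh reached 0.267 without lane set 5. The number of such genes was 7, 8, 8 and 5 without lane sets 1, 2, 4 and 6, and 11 without lane set 3 or 5.

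**Figure D5:**
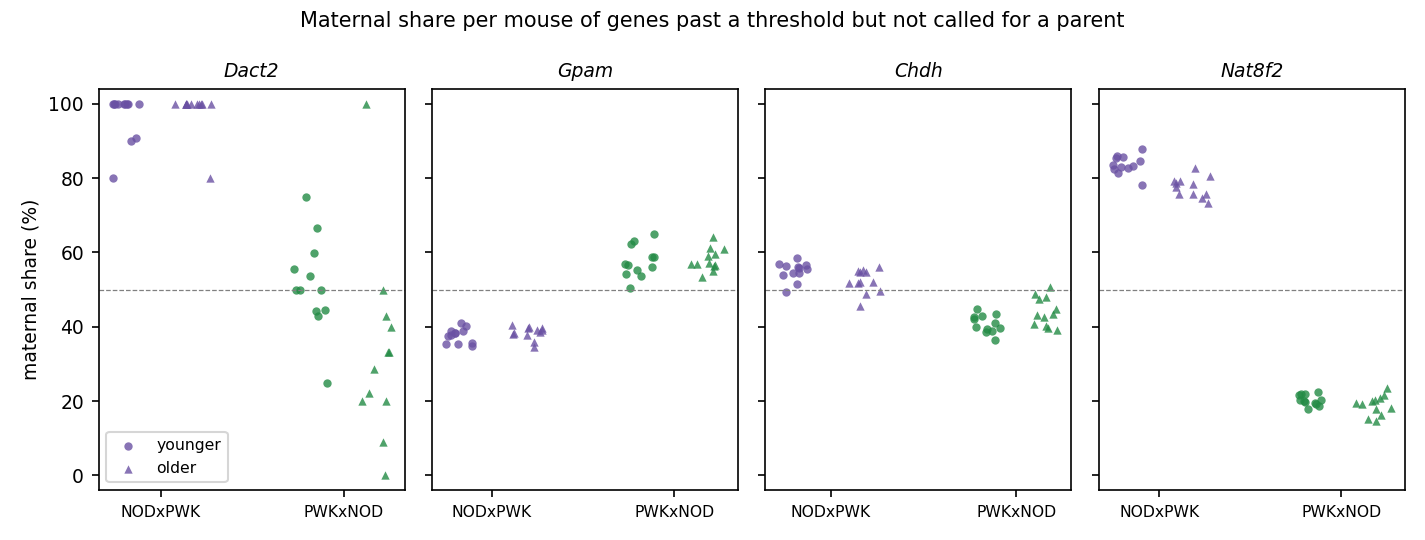
Maternal share (y axis, %) per mouse of Dact2, Gpam, Chdh and Nat8f2 by cross, with circles for younger and triangles for older mice. Dact2 spreads from 0 to 100% in PWKxNOD mice, Gpam is below 50% in all 24 NODxPWK and above it in all 24 PWKxNOD mice, and Nat8f2 is on opposite sides of 50% in the 2 crosses.

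Where a gene is read from 1 parental allele, the crosses also differ in the strain of that allele, so total expression was compared between them. In liver as a bulk tissue, fewer cells of a type and less RNA per cell cannot be told apart. Of 11979 genes, 642 (5.36%) were higher and 639 (5.33%) lower in PWKxNOD mice, and 4 of the 11 called genes were among them. Gm38393 was lower in PWKxNOD mice by a log2 difference of -1.32 ± 0.06 (adjusted p = 4.69e-23). Its active paternal PWK allele averaged 22.2 ± 2.71 CPM in NODxPWK mice and its active paternal NOD allele 8.52 ± 1.57 CPM in PWKxNOD mice. Igf2r was higher in PWKxNOD mice by 0.29 ± 0.04 (adjusted p = 5.39e-07), with 83.2 ± 7.22 CPM from the maternal NOD allele and 99.1 ± 9.28 CPM from the maternal PWK allele.

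Upp2 was higher in PWKxNOD mice by 0.91 ± 0.14 (adjusted p = 3.53e-06). Zrsr1 was lower by -0.21 ± 0.07 (adjusted p = 0.0427), a difference that missed the threshold without lane set 1, 3, 4, 5 or 6 (adjusted p from 0.0819 to 0.168). Peg3 differed by 0.29 ± 0.11 (adjusted p = 0.0956) and Impact by -0.02 ± 0.10 (adjusted p = 0.947). Summed hepatocyte markers had medians of 105410 CPM in NODxPWK and 91105 CPM in PWKxNOD mice, and summed erythroid markers of 445 and 258 CPM. Their part in these differences was not tested.

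For age, 1 gene of 9362 (0.0107%) passed the threshold, Nat8f2, an N-acetyltransferase-like gene. Its maternal share was 78.0 to 87.9% (median 83.4%) in younger and 73.4 to 82.7% (median 78.0%) in older NODxPWK mice. In PWKxNOD mice it was 17.8 to 22.6% (median 20.2%) in younger and 14.6 to 23.5% (median 19.3%) in older mice. The shares of younger and older mice overlapped in both crosses. The maternal over paternal log2 ratio was lower in older mice by -0.35 ± 0.06 (adjusted p = 0.0204), and the adjusted p ranged from 0.000458 to 0.525 over 18 other settings, 7 of which lost the call. It was 0.525 without lane set 2, 0.122 without lane set 3, 0.228 without lane set 4 and 0.246 without lane set 5. Of Nat8f2 windows, 12.6% occur in Nat8f4.

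No gene passed the threshold for diet (0%) in edgeR or limma, and DESeq2 called 1. At an unadjusted p of at most 0.05, edgeR had 380 genes (4.06%) for diet and 360 (3.85%) for age. The smallest adjusted p for diet was 0.517, for Rassf4 (log2 difference 0.91 ± 0.20), the gene that overlaps Depp1. Among the 11 called genes, Depp1 had the smallest unadjusted p for diet (0.00113, adjusted p = 0.926), with a log2 ratio that was 0.47 ± 0.13 higher on the high diet.

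In limma, the 95% interval of the maternal over paternal log2 ratio extended a median of 0.22 to each side over the informative genes. For 8334 of them (93.7%) the whole interval lay within 1 log2 unit of 0, and for 6290 (70.7%) within 0.5 log2 units. In a gene with no difference between the strains, 1 log2 unit corresponds to maternal shares of 33.3 and 66.7%. The ratio leaves out the strain difference, so it does not bound the shares of the single crosses. Nat8f2, for example, had mean maternal shares of 80.6 and 19.6% at a log2 ratio of 0.02 ± 0.03 in edgeR. Beyond 60% maternal or below 40% in both crosses were 8 informative genes, of which 6 passed the test. The other 2, named after their values were seen, were Thra, a thyroid hormone receptor gene with 61.2 and 64.1% (adjusted p = 0.72), and Pard6b, a cell polarity gene with 39.8 and 39.6% (adjusted p = 0.564). The share of Thra ranged from 2.33 to 99.0% between NODxPWK mice and from 0.0477 to 99.7% between PWKxNOD mice, and that of Pard6b reached 83.0 and 83.7%.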

How the data were processed

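Liver RNA of 48 mice was sequenced as unstranded poly-A libraries of 68-base single reads. CASAVA 1.7.0, Bowtie 1.1.2 and GRCm38 are named per the submitters' processing notes. The authors deposited expected counts per gene and allele, 1 NOD and 1 PWK value per mouse. How the 2 runs per mouse were joined, the annotation and the counting version are not stated in the labels. The members and lists were chosen with earlier results of these data known.

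Of 38924 genes, 37607 were matched to GENCODE M21, and the others held 0.159% of counts. Expected counts were rounded to whole numbers. edgeR 4.0.16 (quasi-likelihood test, R 4.3.3) fitted both alleles of every mouse, with a term per mouse and a PWK over NOD term per group. The maternal over paternal log2 ratio is the difference of the mean group ratios between the crosses, multiplied by 0.5. P-values are two-sided and adjusted by Benjamini-Hochberg over all genes tested. Shares were averaged over mice with counts. Alternatives used limma 3.58.1 (pseudocount 0.5) and DESeq2 1.42.0, other scalings and minimums, and subsets of mice. Scripts were tested on simulated data. Genes were named if called with a share of at least 70% or at most 30% in both crosses, if tested members of the broad imprinted lists, if called in the other lists, if among the 6 most extreme called genes in no list on either side, if among the 6 smallest p with shares on opposite sides, or if among the 4 smallest p past the threshold for age or diet. Other genes were named after their values were seen. Results of some genes that the ranking selects are not reported here.

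The replicate number is the set of lanes that mice of all groups shared, per the labels. Deviations of mice that shared a lane set correlated on average at 0 for allele ratios and -0.009 for totals, over 168 pairs. The labels do not name litters, so p-values measure the spread between these mice. Floors of 3 counts cover counting error only, and the limma intervals rest on the spread between mice. Between mice of a group, the chi-square of counts per gene was 4.89 to 65.4 over 120 pairs, so no library was counted as a duplicate.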

Additional observations from a re-analysis of the deposited data

Results flagged for a closer look

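Single mice stood apart from the other 5 of their group in the maternal share of near-monoallelic genes in 14 of 77 groups examined. Chance gives about 1 in 20 for values that vary freely, and that rate does not hold here, because in most of these groups the other mice sat at 0 or 100% and a few counts of the other allele set a mouse apart. For Igf2r the lowest mouse had 95.48% (NODxPWK, high diet, older), 99.8% (NODxPWK, normal, younger), 98.75% (PWKxNOD, high, younger), 98.77% (PWKxNOD, normal, older) and 98.99% (PWKxNOD, normal, younger), while the others of each group had 100%. For Peg3 the highest mouse had 7.463% (NODxPWK, normal, older), 4.167% (NODxPWK, normal, younger), 4.132% (PWKxNOD, high, younger), 10.2% (PWKxNOD, normal, older) and 5.263% (PWKxNOD, normal, younger). For Zrsr1 it had 6.452% (NODxPWK, high, older), 17.98% (NODxPWK, normal, younger) and 4.124% (PWKxNOD, normal, older). For Gm38393 it had 15.22% (PWKxNOD, normal, younger), with the others at 0%. These shares come from counts rounded to whole numbers.

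The maternal over paternal log2 ratio of Nat8f2 differed by age, at -0.3477 in older relative to younger mice, by the edgeR test of that difference.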

How the results depend on the processing

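Calls of Igf2r, H13, Gnas, Slc22a18 and Ctsz kept their direction and their side of the threshold under every alternative run. So did those of Peg3, Zrsr1 and Impact, for which DESeq2 gave no adjusted p. No result reversed. DESeq2 called 12 genes maternal, 34 on opposite sides, 2 for age and 1 for diet. Paternal calls numbered 8 with no filter on low counts and 8 with a minimum of 5. Without the 7 mice labelled 25, which leaves 1 mouse in a group that is assumed to vary like the others, 12 genes were maternal, 8 paternal, 8 passed for age, 13 for diet, and 400 were lower in total in PWKxNOD mice. Without the shallowest barcode, 8 were paternal and 0 passed for age. Age gave 0 with no filter and 2 with a minimum of 50. Without the 8 mice with pancreas transcripts, a choice made after seeing the data, 9 genes were on opposite sides and 0 passed for age. Leaving out each lane set gave 5 to 6 maternal, 5 to 6 paternal, 5 to 11 opposite and 0 to 1 age calls, 0 for diet, and 434 to 622 genes higher and 443 to 572 lower in total. With the replicate number as a block, 6 genes were maternal, 4 paternal, 13 on opposite sides, 1 passed for age and 0 for diet, and totals gave 631 and 633. The block ended the call of Gm38393 (adjusted p = 0.667). The cause of these changes was not tested. Depth limits genes with mean counts under 20, whose shares rest on few reads per mouse.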

Other observations

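Among genes in none of the imprinted lists, 2.24% of 9322 tested genes lay within 1 Mb of a matched listed gene. Of the 4 called genes in no list, Ctsz lay 80.7 kb from Gnas. Gm38393 overlaps Snrpn and Snurf, which are listed but were not matched. The nearest matched listed gene to Gm38393 was Ube3a, at 663 kb. Depp1 and Upp2 were not within that distance of a listed gene.

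The genes of the broad imprinted lists with mean counts from 1 to 5 are given as shares of summed counts, in NODxPWK and then PWKxNOD mice, with no test. Of those listed as maternally expressed, Cdkn1c, a cell cycle inhibitor gene, had 69.1 and 92.4% on the maternal allele, and Phlda2 had 41.1 and 78.8%. Of those listed as paternally expressed, Airn, the antisense RNA of Igf2r, had 23.6 and 44.7% on the maternal allele, and Mkrn3 had 36.3 and 23.5%. Igf2, a growth factor gene, had 23.4 and 53.7%, and Peg10 had 28.8 and 51.7%. Ndn had 47.6 and 50%, but its alleles were hardly told apart. Of 22 NODxPWK mice with Ndn counts, 1 was above and 1 below 50%, and all 19 such PWKxNOD mice stood at 50%. By summed counts, Phlda2, Igf2 and Peg10 thus lay on opposite sides of 50% in the crosses. For some genes, most mice lay on the other side from the summed share. Igf2 was above 50% in 2 and below it in 11 of 19 PWKxNOD mice with counts. Mkrn3 was above 50% in 12 and below it in 6 of 18 NODxPWK mice, and Airn in 11 and 9 of 23 PWKxNOD mice. Cdkn1c was above 50% in 12 and below it in 11 of 23 NODxPWK mice. For Phlda2, 3 of 19 NODxPWK mice with counts were below 50% and 6 of 16 PWKxNOD mice above it, with the others at 50%.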
